A study of Mus musculus with 18 samples.

Results

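The nasal mucosa of mice given papain was compared with that of control mice by RNA sequencing, in 6 libraries labelled CRS and 6 labelled CON, which together are 12 of the 18 libraries of the series. The libraries were chosen by their group label alone. CRS mice model chronic rhinosinusitis, a lasting inflammation of the nose and sinuses, and received 20 µg of papain, a protease from papaya, in 20 µL into the nose on days 0 to 2 and again on days 7 to 11. What CON mice received, and the strain, age, sex, hour of collection and number of animals behind a library, are not stated in the labels, so p-values measure only the spread between these libraries, which may be partly technical. Another group of 6 libraries, C10, came from papain-treated mice that also received a compound at 10 mg/mL and 10 µL per side for 10 days. It entered the shared estimate of spread and the filter on low counts, which kept 18291 genes with it and 17713 in a fit of the 12 libraries alone. Poly(A) RNA was sequenced, and the kit is not stated to keep the strand. Totals ran from 16510920 to 18433866 counts in CON and from 16531779 to 17523368 in CRS.

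The mucosa of the nose holds a respiratory epithelium with ciliated, mucus-making and rarer tuft cells and ionocytes, an olfactory epithelium with sensory neurons, glands that secrete odorant-binding proteins, and below them a stroma of fibroblasts, vessels, smooth muscle and nerve bundles. Papain cleaves proteins of the epithelial surface and is known to start type 2 inflammation, in which epithelial alarmins call on lymphocytes that make interleukins 4, 5 and 13. Ppargc1a, the subject of the single call below, encodes PGC-1alpha, a coactivator that works with the nuclear respiratory factors and the oestrogen-related receptors on genes for mitochondria. The defining markers of these tissues were present in all 12 libraries. Levels are given in CPM, the count scaled to the library's total adjusted by its TMM normalization factor. Omp of olfactory neurons lay at 1240 to 3490 CPM, Foxj1 of ciliated cells at 114 to 244 CPM and Obp1a of nasal glands at 3740 to 35300 CPM.

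The 6 CRS libraries differed from each other more than the 6 CON libraries did. For 75.3% of the 18291 genes tested the standard deviation was larger in CRS than in CON, with a median of 0.312 against 0.226 on the log2 CPM scale. Along the leading principal component (39.2% of the variance) the 2 labels were mixed. CRS 2 and CRS 5 had scores of 85.3 and 63.1, CRS 1 had -62.1, and CON ran from -46.3 to 29.4. On the second component, with 12.6%, CRS 3, 4, 5 and 6 lay at -27.3, -44.6, -8.86 and -22.2, below all CON libraries (-3.57 to 49.3). CRS 1 was the highest or the lowest CRS library for 53.5% of genes, and CRS 6 for 13.3%. Without CRS 1, CRS 2 and CRS 5 the median standard deviation of the CRS group was 0.231, close to that of CON.

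**Figure D1:**
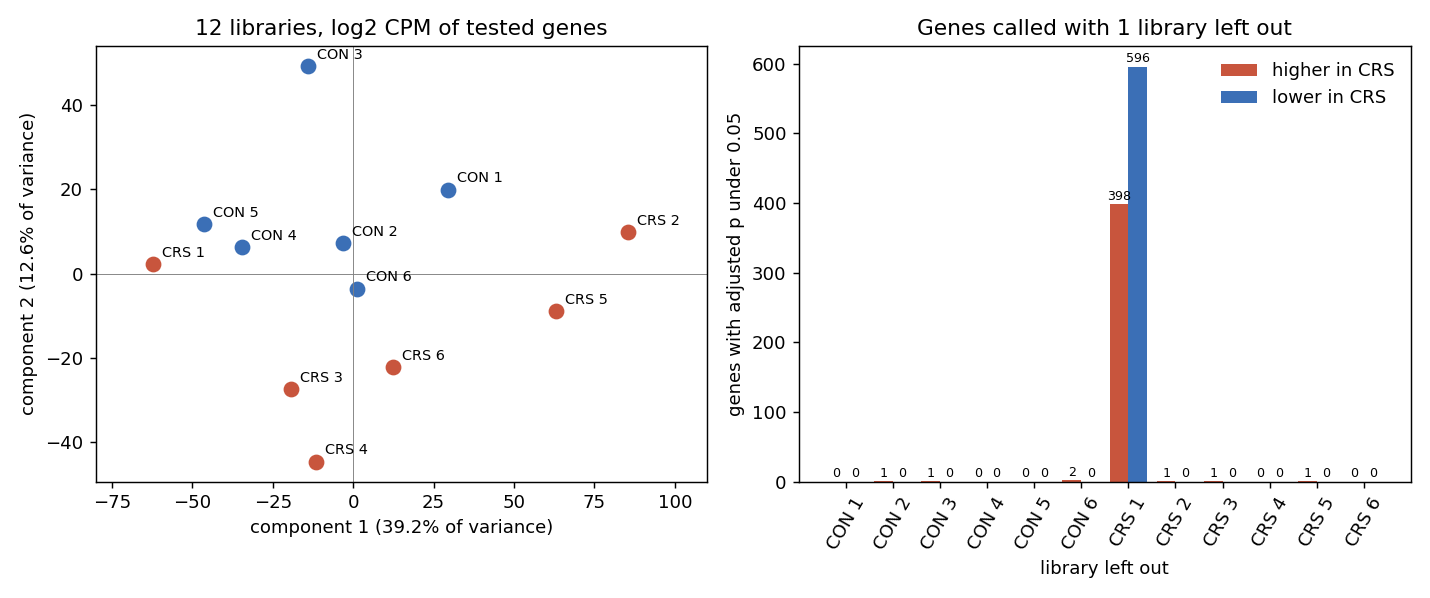
Left: the first 2 principal components of log2 CPM in the 12 libraries, CON in blue and CRS in red; CRS 2 and CRS 5 lie to the right and CRS 1 to the left of all CON libraries. Right: bars give the number of genes with an edgeR adjusted p under 0.05, higher (red) and lower (blue) in CRS, when the library on the axis was left out; the bars reach 398 and 596 without CRS 1 and at most 2 without any other.

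edgeR's quasi-likelihood test with Benjamini-Hochberg adjustment called 1 gene higher in CRS at an adjusted p under 0.05, which is 0.00547% of the genes tested, and 0 lower (0.0%). At an unadjusted p under 0.05, 1417 genes lay higher (7.75%) and 1152 lower (6.3%). Of all genes tested, 50.8% had a log2 difference above 0. These shares are the background for the counts of list members given below. With DESeq2 the calls were 126 upwards and 52 downwards. With limma-voom and its sample weights, lowest of the 18 libraries for CRS 1 (0.349), they were 395 and 545. Without CRS 1, edgeR called 398 genes higher (2.16% of those tested) and 596 lower (3.23%). That fit stands out by its count, which was known before it was used here, so its calls are given beside the values from all libraries and not in their place. Of its 994 genes, 993 were also tested with all libraries. All of those had the same sign, and 873 an unadjusted p under 0.05. Both fits share every CON library and the other 5 CRS libraries, so that overlap was largely fixed in advance. CRS 1 lay on the opposite side of the CON mean from the other 5 CRS libraries for 657 of the 993 genes (66.2%), of which 473 were lower and 184 higher in the rest. These genes were picked by the fit without CRS 1. The same share over all genes tested was not computed, so 66.2% has no background to be set against. limma-voom with all libraries called 667 of the 994. Its weight for CRS 1 was the lowest, so that count is no independent check.

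Ppargc1a rose 1.78-fold in papain-treated mucosa and was the called gene. It ranged from 27.5 to 42.8 CPM in CON (median 34.7) and from 49.6 to 78.7 CPM in CRS (median 60.9). The groups did not overlap, and the lowest CRS value was that of CRS 2. The log2 fold change was 0.83 ± 0.12 (SE, n = 6 each; edgeR adjusted p = 0.018). The call was kept in 16 of 23 other fits and was lost without CON 1, 4 or 5, without CRS 4 or 6, with the 12 libraries alone (edgeR adjusted p = 0.198, the highest) and with the replicate block. In the mm10 build the files place the gene on chromosome 5 from 51454250 to 51567726, on the minus strand. The 249 bases before its distal start in RefSeq (GRCm38.p6, chr5:51567727-51567975, minus strand) are shown because it is the gene that passed. The capitals mark the letters TGACG read on the opposite strand, known as the core of the site of the factor CREB, and they end 45 bases before the start. TGACG was searched on both strands after this window had been seen, and 23.7% of the promoters of the tested genes hold it.

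Ppargc1a: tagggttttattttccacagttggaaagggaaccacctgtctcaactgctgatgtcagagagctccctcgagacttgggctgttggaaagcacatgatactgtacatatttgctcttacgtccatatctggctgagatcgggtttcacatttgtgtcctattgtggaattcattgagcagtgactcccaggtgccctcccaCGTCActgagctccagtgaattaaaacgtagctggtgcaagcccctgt

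Other genes with all 6 CRS libraries above all 6 CON libraries numbered 69, so that 70 genes (0.383%) did not overlap upwards, and 51 (0.279%) did not overlap downwards. Bhlhe41, a transcription factor that represses clock genes, ranged from 17.2 to 25.3 CPM in CON and from 30.6 to 48.3 CPM in CRS, with no overlap. Its log2 difference was 0.83 ± 0.13 (edgeR adjusted p = 0.0624), and it was called without CRS 1 (0.89, edgeR adjusted p = 0.00836). Flcn, which encodes folliculin, a regulator of growth signalling at the lysosome, ranged from 38.4 to 53.6 CPM in CON and from 60.1 to 79.7 CPM in CRS (0.51 ± 0.09, edgeR adjusted p = 0.115). Chka, a choline kinase of phospholipid synthesis, ranged from 28.6 to 32.0 CPM in CON and from 34 to 56.7 CPM in CRS. Rbm25, a splicing factor, ranged from 79.3 to 89.2 CPM in CON and from 89.6 to 124 CPM in CRS, with a gap between the groups smaller than the range within either. Snhg8, a host of small nucleolar RNA, had 4.18 to 7.34 CPM in CON and 8.54 to 22.2 CPM in CRS, with the highest value in CRS 4. Each of Flcn, Chka, Rbm25 and Snhg8 was called without CRS 1.

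**Figure D2:**
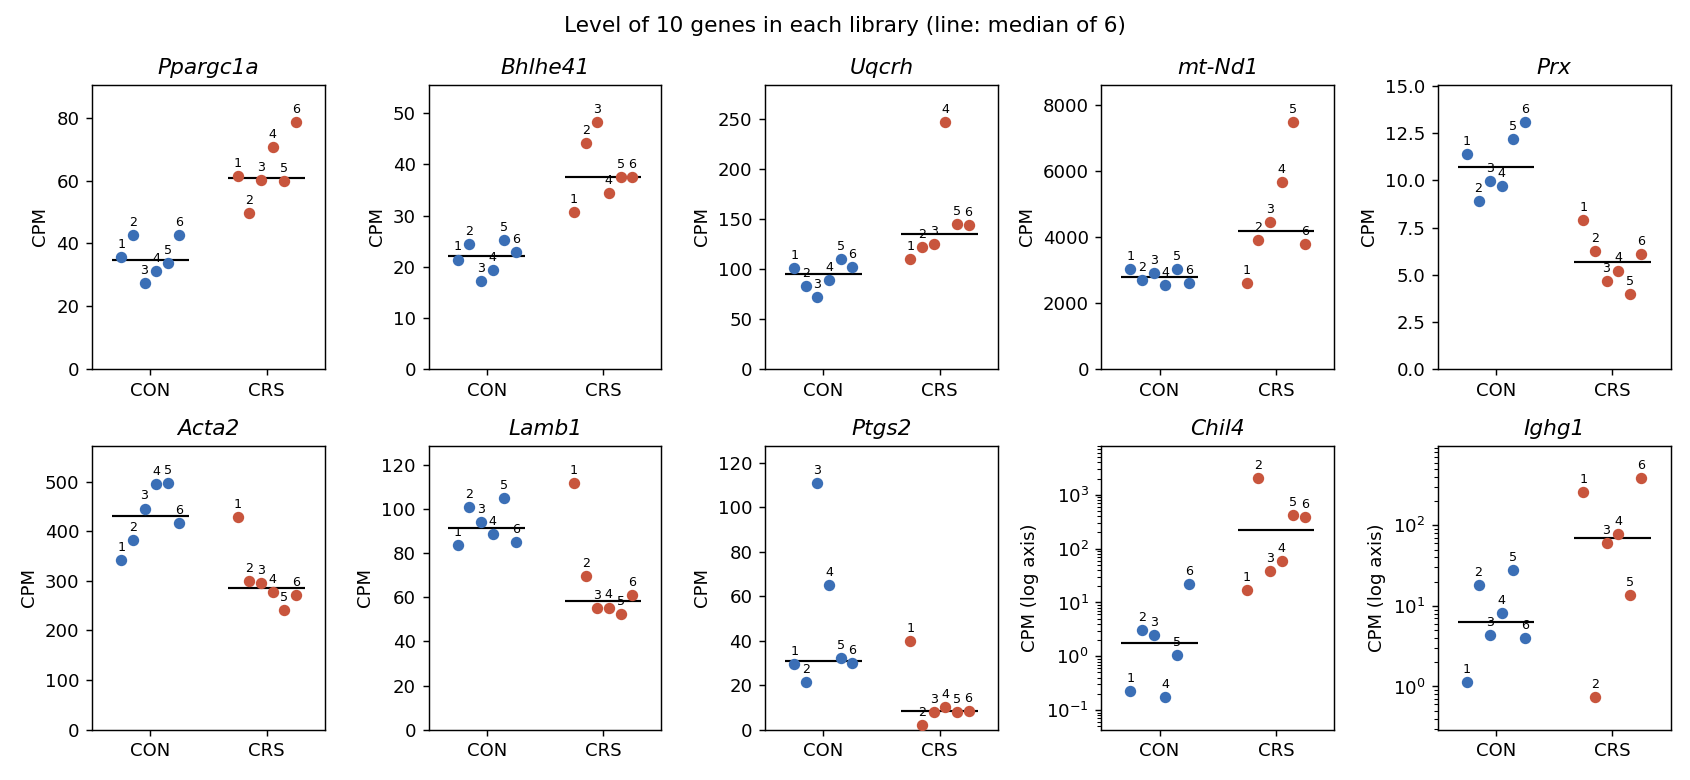
CPM of 10 genes in each CON (blue) and CRS (red) library, numbered by replicate, with the group median as a line; Chil4 and Ighg1 have a log axis. Ppargc1a, Bhlhe41, Uqcrh and Prx do not overlap between groups, while for Lamb1 and Ptgs2 the library CRS 1 lies in the CON range or above it.

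The genes for the respiratory chain that the nucleus encodes lay higher in CRS almost without exception. Of 79 such subunits tested, 77 had a log2 difference above 0 and 65 (82.3%) an unadjusted p under 0.05 above 0, against 7.75% of all genes; 0 lay lower at that threshold. The median difference was 0.39, and that of all genes 0.00. None of the 79 passed with all libraries, and 36 did without CRS 1, where 2.16% of all genes were called higher. The summary level of the list, the mean log2 CPM of its members minus the CON mean, was 0.90 in CRS 4, 0.28 to 0.45 in CRS 2, 3, 5 and 6, and 0.03 in CRS 1, and CON ran from -0.31 to 0.18. So 5 CRS libraries lay above the CON range and CRS 1 lay inside it. Without CRS 4 the median was 0.26.

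All 5 complexes of the chain contributed. Complex I, which takes electrons from NADH, had 36 of the 37 members listed here above 0 (median 0.37, 32 at an unadjusted p under 0.05). Complex II, shared with the tricarboxylic acid cycle, had 4 of 4 above 0 and the lowest median, 0.16. Complex III had 8 of 8 (median 0.55), complex IV, cytochrome c oxidase, 12 of 13 (median 0.52), and complex V, the ATP synthase, 17 of 17 (median 0.36). Uqcrh, the hinge protein of complex III, ranged from 71.8 to 110 CPM in CON and from 110 to 247 CPM in CRS, and the groups touch but do not overlap (0.68 ± 0.16, edgeR adjusted p = 0.206). Ndufa3 of complex I ranged from 15.2 to 29.3 CPM in CON and from 29.2 to 99.1 CPM in CRS (0.95 ± 0.24), where CRS 1 lay just under CON 5, and the gene overlaps Tfpt. Ndufb3 of complex I ranged from 19.4 to 32.9 CPM in CON and from 27.5 to 69.9 CPM in CRS (0.71 ± 0.19). CRS 4 was the highest library for all 3.

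The extremes of the family, named after their values were seen, were Cox8b and Cox6b2 of complex IV. Cox8b, the form of this subunit known from heart and muscle, ranged from 14.3 to 41.7 CPM in CON and from 28.1 to 177 CPM in CRS (1.29 ± 0.38, edgeR adjusted p = 0.215). The 12 listed skeletal muscle genes summed to 2.9 to 58.4 CPM in CON, the highest in CON 5, and to 3.95 to 6.26 CPM in CRS, with Tnnc2 at 0 in all 12 libraries. Cox6b2, the form known from testis, was at 1.61 to 3.91 CPM in CON and 0.989 to 2.55 CPM in CRS (-0.39 ± 0.28). Ndufa4l2, which was listed here with complex I, was the other member below 0 (-0.29 ± 0.26).

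Short windows before the start of 2 subunit genes are shown because they hold the letters bound by nuclear respiratory factor 1, the partner of PGC-1alpha. Both windows hold GCGC, then any base, then TGCGC, with both strands read. They overlap no annotated exon on the strand of their own gene, and exons on the other strand were not checked. The 2 genes are examples and not a ranking of the subunits by p. The capitals mark those letters. Ndufa11 of complex I lies at chr17:56717512-56717761 on the plus strand, and Sdhd of complex II at chr9:50603850-50604099 on the minus strand (RefSeq, GRCm38.p6, 250 bases each).

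Ndufa11: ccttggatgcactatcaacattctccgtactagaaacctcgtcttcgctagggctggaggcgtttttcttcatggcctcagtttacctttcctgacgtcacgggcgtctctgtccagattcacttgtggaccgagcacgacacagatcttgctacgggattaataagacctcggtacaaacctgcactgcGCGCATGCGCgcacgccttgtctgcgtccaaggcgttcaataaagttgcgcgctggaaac

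Sdhd: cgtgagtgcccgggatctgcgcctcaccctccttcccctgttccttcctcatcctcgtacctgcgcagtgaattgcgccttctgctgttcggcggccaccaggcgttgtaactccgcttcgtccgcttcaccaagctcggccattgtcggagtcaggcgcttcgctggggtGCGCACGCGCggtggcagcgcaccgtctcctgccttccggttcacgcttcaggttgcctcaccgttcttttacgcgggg

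Ndufa11 ranged from 33.6 to 40.0 CPM in CON and from 37.5 to 58.1 CPM in CRS (0.33 ± 0.11), and it overlaps Vmac. Sdhd ranged from 85.3 to 90.6 CPM in CON and from 91.5 to 128 CPM in CRS, without overlap (0.21 ± 0.08). Of 70 promoters matched for 65 of the 79 subunits, 14 (20.0%) held that run of letters in the 250 bases before the start, against 6.53% of 16460 promoters of tested genes. The letters TNAAGGTCA, of oestrogen-related receptors, were in 2.86% of the subunit promoters (2 of 70) and in 0.796% of all. CCGGAAG, of the ETS factor GABP, was in 17.1% and 11.1%. In promoters of cytosolic ribosomal proteins the nuclear respiratory factor 1 letters had a share of 1.37%, TNAAGGTCA 2.74% and CCGGAAG 27.4%. In those of mitochondrial ribosomal proteins the shares were 13.5%, 0.0% and 23.0%. CCGGAAG was thus more frequent in both of these families than in the subunits. These shares describe letters, not binding.

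The 13 protein-coding genes of the mitochondrial genome, whose products join the same complexes, lay higher as well: 12 were above 0, 9 at an unadjusted p under 0.05, with a median of 0.72. mt-Nd1 ranged from 2530 to 3030 CPM in CON and was at 2620 in CRS 1 and at 3800 to 7490 CPM in the other 5 CRS libraries (0.74 ± 0.19, edgeR adjusted p = 0.206, and 0.0145 without CRS 1). Without CRS 1, 9 of the 13 were called, against 2.16% of all genes called higher in that fit. CRS 5 had the highest level of these genes, 1.53 above the CON mean, and without it the median was 0.46. The library that led the nuclear subunits, CRS 4, had 0.30 here, so the nuclear and mitochondrial genes were not highest in the same library.

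Medians of mitochondrial biogenesis regulators, the tricarboxylic acid cycle and fatty acid oxidation were near 0, while glycolysis and hypoxia genes lay mostly higher. Of 15 mitochondrial biogenesis regulators 6 were above 0, with a median of -0.07 and Ppargc1a the single one at an unadjusted p under 0.05. Tfam, which packs and transcribes mitochondrial DNA, ranged from 22.2 to 29.6 CPM in CON and from 24.0 to 31.2 CPM in CRS (0.15 ± 0.09). Polrmt, the mitochondrial RNA polymerase, ranged from 20.9 to 24.7 CPM in CON and from 16.5 to 23.5 CPM in CRS (-0.16 ± 0.09). The tricarboxylic acid cycle had 14 of 19 genes above 0 and a median of 0.07, with 3 at an unadjusted p under 0.05, of which Sdhc and Sdhd are also complex II. Fatty acid oxidation had 11 of 18 above 0 and a median of 0.01, which was -0.02 without CON 1. Glycolysis and hypoxia genes had 20 of 23 above 0 and a median of 0.18.

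Subunits of the ribosomes, the V-ATPase and the proteasome also lay mostly higher. Cytosolic ribosomal proteins had 79 of 82 above 0 and a median of 0.30, with 42 (51.2%) at an unadjusted p under 0.05, though without CRS 4 the median was 0.19. Rplp2, a protein of the ribosomal stalk, ranged from 118 to 188 CPM in CON and from 163 to 365 CPM in CRS (0.63 ± 0.16). These genes have many near-identical pseudogenes, which makes their counts uncertain. Mitochondrial ribosomal proteins had 72 of 77 above 0 and a median of 0.19, with 30 at an unadjusted p under 0.05, and Mrpl23 did not overlap between groups (19.5 to 29.1 CPM in CON, 29.6 to 49.1 CPM in CRS). The proton pump of lysosomes, the V-ATPase, had 20 of 22 subunits above 0 and a median of 0.18, with 11 at an unadjusted p under 0.05 above 0 and 1 below. Its subunit Atp6v1g1 ranged from 110 to 129 CPM in CON and, without overlap, from 129 to 210 CPM in CRS (0.46 ± 0.11, edgeR adjusted p = 0.206). Other lysosomal genes lay mostly on the lower side: of 24 lysosomal hydrolases and membrane proteins 21 lay below 0, with 0 at an unadjusted p under 0.05 in either direction. Their median was -0.10, which was -0.20 without CRS 1 and 0.02 without CON 5. Proteasome subunits had 33 of 38 above 0 and a median of 0.10, which was 0.05 without CRS 4.

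The direction of the difference followed gene length. In the shortest decile of the tested genes, of 38 to 1247 bases, the median log2 difference was 0.20 and 72.5% of genes lay above 0. The median was lower in each longer decile and reached -0.07 in the longest, of 9175 bases and more, where 33.6% lay above 0. CRS 4 had the steepest course, from 0.38 in the shortest decile to -0.24 in the longest, while CRS 1 ran from 0.11 to 0.02. Respiratory chain subunits are short, with a median of 1587 bases, yet they lay higher than genes of their length: 33 in the shortest decile had a median of 0.56 against 0.20, and 16 in the next had 0.46 against 0.10. With the length trend of each library removed, their median was 0.31 and 55 of 79 lay higher at an unadjusted p under 0.05. For cytosolic ribosomal proteins that median was 0.22, for mitochondrial ribosomal proteins 0.11. Long non-coding (lincRNA) genes had a median of 0.19 over 490 genes, processed pseudogenes 0.11 over 562 and protein-coding genes -0.01 over 15828. The part of RNA quality in this trend was not tested.

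**Figure D3:**
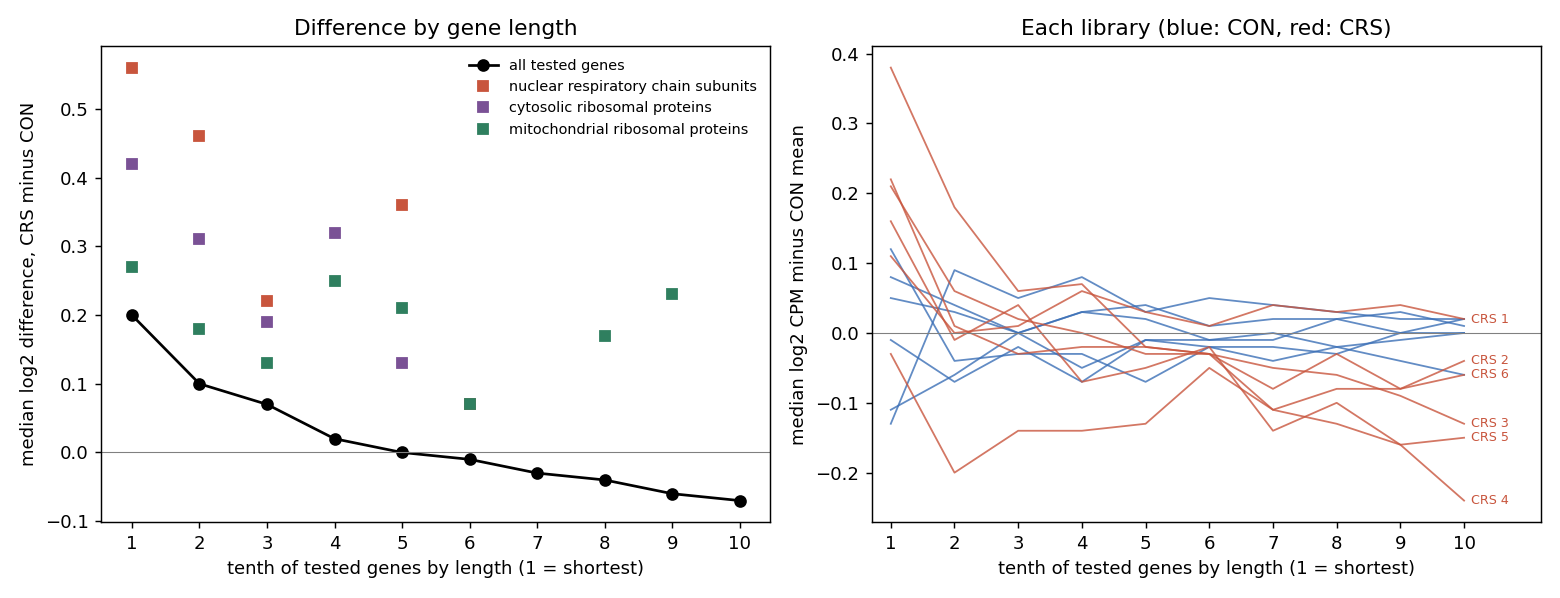
Left: median log2 difference, CRS minus CON, in deciles of the tested genes by length (black line), with the median of the members of 3 gene families in each decile that holds at least 5 of them (squares); all squares lie above the line. Right: median log2 CPM of each decile in each library, relative to the CON mean; CRS 4 runs from 0.38 to -0.24.

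Clock, stress and calcium-binding genes held some of the smallest p-values. Of 18 clock genes 12 lay above 0, 5 at an unadjusted p under 0.05, with a median of 0.11 (0.18 without CRS 1). Beside Bhlhe41, its paralog Bhlhe40 ranged from 94.7 to 151 CPM in CON and from 105 to 202 CPM in CRS, with the highest value in CRS 1 (0.40 ± 0.14). Nr1d2, a repressor of the clock, ranged from 67.5 to 86.3 CPM in CON and from 73.6 to 108 CPM in CRS (0.28 ± 0.10). The hour of collection is not stated, so a difference in it cannot be told apart from one of treatment. Of 19 genes of endoplasmic reticulum stress, the 3 at an unadjusted p under 0.05 were Trib3, Ddit3 and Atf4, which belong to the branch that also answers amino acid shortage, and the list median was 0.03 (-0.01 without CRS 3). Ddit3 overlaps Mars. Trib3 was at 9.3 CPM in CRS 1 and at 18.3 to 24.4 CPM in the other CRS libraries, and CON ranged from 8.34 to 12.7 CPM (0.76 ± 0.19, edgeR adjusted p = 0.206, and 0.00974 without CRS 1). S100 proteins, small calcium-binding proteins, had 12 of 15 above 0, 7 of them at an unadjusted p under 0.05, with a median of 0.31, or 0.19 without CRS 4. S100a13 ranged from 11.5 to 18 CPM in CON and from 18 to 45.5 CPM in CRS without overlap, and S100b, a marker of glia, from 25.2 to 46.4 CPM in CON and from 29.6 to 80.8 CPM in CRS, though S100b overlaps Dip2a.

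Against these stood the genes of nerve sheath and stroma, which lay lower. Prx encodes periaxin and Drp2 its partner, and both belong to the cytoskeleton of myelinating Schwann cells. Prx ranged from 8.91 to 13.1 CPM in CON and from 3.99 to 7.91 CPM in CRS (-0.94 ± 0.19, edgeR adjusted p = 0.206, and 0.0141 without CRS 1). Drp2 ranged from 7.33 to 12.3 CPM in CON and from 3.02 to 6.86 CPM in CRS (-0.80 ± 0.22, edgeR adjusted p = 0.206, and 0.0273 without CRS 1). Neither overlapped between groups, and CRS 1 was the highest CRS library for both. The groups overlapped for the myelin protein Pmp22 (41.0 to 55.2 CPM in CON, 22.6 to 42.0 CPM in CRS). Of the 14 Schwann cell genes 10 lay below 0 and 5 at an unadjusted p under 0.05, with a median of -0.17 (-0.10 without CON 4, -0.11 without CRS 6). Their summary level was -0.43 to -0.13 in the 6 CRS libraries and -0.08 to 0.08 in CON, and no other list described here kept the groups apart in this way. In bulk tissue, fewer cells of a type and less RNA per cell cannot be told apart.

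Smooth muscle and pericyte genes lay lower in 14 of 15 cases, 10 of them (66.7%) at an unadjusted p under 0.05, against 6.3% of all genes, with a median of -0.47. Acta2, smooth muscle actin, ranged from 343 to 498 CPM in CON and was at 428 CPM in CRS 1 and at 241 to 299 CPM in the other CRS libraries (-0.51 ± 0.15). Kcnj8, a potassium channel subunit of pericytes, ranged from 7.70 to 10.6 CPM in CON and from 4.35 to 7.91 CPM in CRS (-0.65 ± 0.17). Lmod1, which builds actin filaments of smooth muscle, ranged from 17.4 to 26.9 CPM in CON and from 9.43 to 21.5 CPM in CRS (-0.74 ± 0.22). CRS 1 was the highest CRS library for all 3, and its list level, -0.01, lay at the CON mean, while the other 5 lay at -0.75 to -0.43, below the CON range. Without CRS 2 and CRS 5, the libraries low in most stromal genes, the median was -0.42.

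Fibroblasts, basement membrane and elastic fibres shared a pattern over the libraries. All 18 fibroblast genes lay below 0 (median -0.57, 8 at an unadjusted p under 0.05), as did all 15 of the basement membrane (median -0.46, 6) and all 15 of the elastic fibres (median -0.46, 8). In each list CRS 2, 4, 5 and 6 lay below the CON range, CRS 1 lay 0.35 to 0.39 above the CON mean, and CRS 5 was lowest. CRS 3 lay below the CON range for the basement membrane only, at -0.44. Without CRS 1 the medians were -0.87, -0.66 and -0.72, and the calls 8 of 18, 12 of 15 and 10 of 15, against 3.23% of all genes called lower. Without CRS 2 and CRS 5 the medians were -0.34, -0.26 and -0.26. Lamb1, the beta chain of laminin, ranged from 83.7 to 105 CPM in CON and was at 112 CPM in CRS 1 and at 52.6 to 69.5 CPM in the other CRS libraries (-0.46 ± 0.15, edgeR adjusted p = 0.23, and 0.00836 without CRS 1). Lama2, the laminin chain of muscle and Schwann cells, ranged from 19.0 to 28 CPM in CON and from 7.25 to 21.5 CPM in CRS (-0.77 ± 0.23). Pdgfrb, a growth factor receptor of fibroblasts and pericytes, was at 140 CPM in CRS 1 and at 56.6 to 76.7 CPM in the other CRS libraries, against 90.8 to 136 CPM in CON. Eln, elastin, was at 237 CPM in CRS 1 and at 75.4 to 154 CPM in the others, against 160 to 292 CPM in CON.

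Collagens lay lower in 37 of 43 cases with a median of -0.39, or -0.22 without CON 3, which had their highest CON level. Col14a1 of the fibril surface ranged from 75.5 to 126 CPM in CON and from 36.7 to 116 CPM in CRS (-0.75 ± 0.24). Among targets of TGF-beta and matrix enzymes 20 of 22 lay below 0, with a median of -0.47 (-0.89 without CRS 1), and Ctgf, a secreted matrix protein, ranged from 115 to 255 CPM in CON and from 53.1 to 153 CPM in CRS (-0.83 ± 0.24). Endothelial genes lay below 0 in 18 of 20 cases with a median of -0.47 (-0.20 without CRS 2 and CRS 5). Tmem100, a membrane protein of endothelium downstream of BMP signals, did not overlap, with 7.53 to 11.8 CPM in CON and 4.59 to 7.48 CPM in CRS (-0.71 ± 0.15, edgeR adjusted p = 0.206). Nrarp, an inhibitor that Notch signalling switches on, ranged from 5.43 to 9.26 CPM in CON and from 3.28 to 5.48 CPM in CRS (-0.83 ± 0.17), and Notch3 of pericytes from 95.3 to 105 CPM in CON and from 47.1 to 102 CPM in CRS. Dll1, a Notch ligand, lay on the other side, with 6.42 to 8.96 CPM in CON and 7.79 to 11.5 CPM in CRS (0.41 ± 0.12), all 6 CRS libraries being above the CON median. The 16 Notch pathway genes had 12 below 0 and a median of -0.23, with 3 higher and 3 lower at an unadjusted p under 0.05. Arhgap20 ranged from 9.39 to 17.1 CPM in CON and, without overlap, from 4.57 to 8.84 CPM in CRS (-1.03 ± 0.22).

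**Figure D4:**
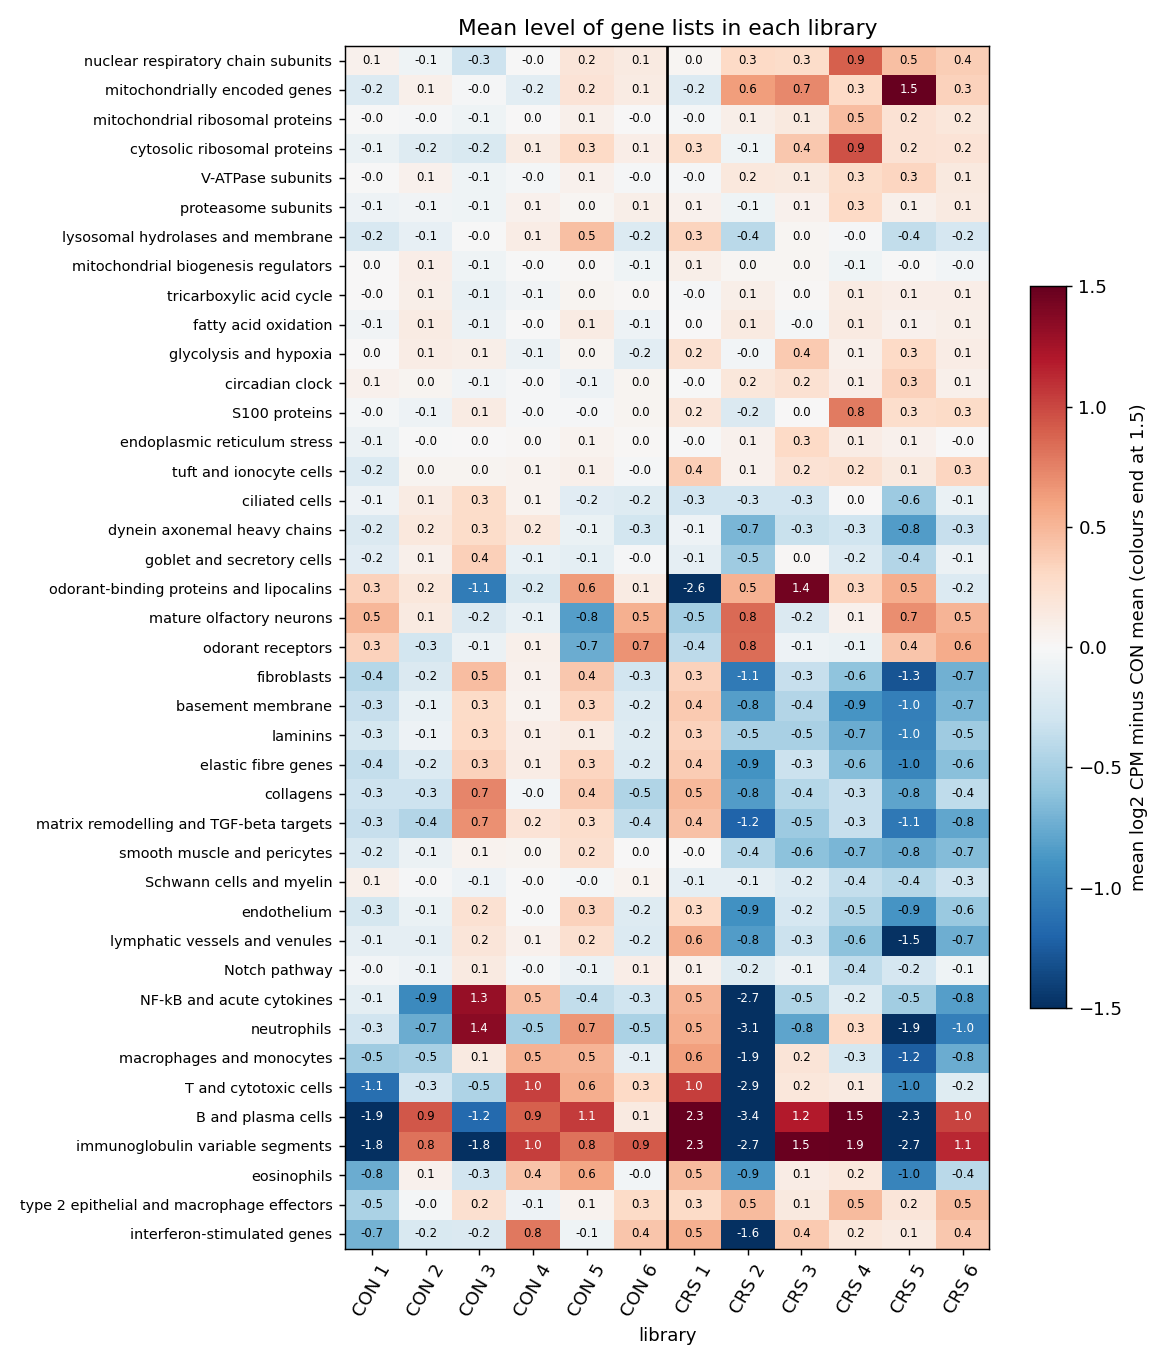
Mean log2 CPM of 41 gene lists in each library, minus the CON mean (red above, blue below; colours end at 1.5). The stromal lists are blue in CRS 2 to 6 and red or near white in CRS 1, most immune lists are bluest in CRS 2, and the nuclear respiratory chain is red in CRS 2 to 6.

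Acute inflammatory genes lay lower, with wide spread on both sides. Of 23 genes of NF-kB and acute cytokines 22 lay below 0, 7 at an unadjusted p under 0.05, with a median of -0.69. The level of this list was 1.31 above the CON mean in CON 3 and 2.70 below it in CRS 2, and without CON 3 the median was -0.14. Ptgs2, the inducible cyclooxygenase, ranged from 21.6 to 111 CPM in CON and was at 39.9 CPM in CRS 1 and at 2.23 to 10.2 CPM in the other CRS libraries (-1.91 ± 0.50, edgeR adjusted p = 0.206, and 0.00892 without CRS 1). Il1b ranged from 50.2 to 258 CPM in CON and from 4.45 to 134 CPM in CRS (-1.21 ± 0.56). Neutrophil genes lay below 0 in 11 of 11 cases with a median of -0.66. The 15 listed neutrophil genes summed to 846 to 2820 CPM in CON and to 171 to 1680 CPM in CRS, with none at 0 throughout, and without CON 3 the median was -0.39, without CRS 2 -0.43 and without CRS 1 -1.23. Macrophage genes had a median of -0.42, which was -0.26 without CRS 2, -0.27 without CON 4 and -0.70 without CRS 1. T cell genes had a median of -0.18 that turned to 0.06 without CRS 2 and to 0.02 without CON 4, and was -0.60 without CRS 1. Interferon-stimulated genes had CRS 2 at 1.60 below the CON mean. Their median of 0.05 had no stable side: it was 0.22 without CRS 2, -0.05 without CRS 1 and -0.04 without CON 1.

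Type 2 genes were high in some CRS libraries and at the control level in others. Chil4, a chitinase-like protein of the airway in type 2 inflammation, ranged from 0.176 to 22.0 CPM in CON (median 1.78) and from 17.4 to 2020 CPM in CRS (median 224). CRS 1 held the lowest CRS value and CON 6 the highest CON value, and those overlap. The log2 difference was 6.65 ± 1.49 (edgeR adjusted p = 0.206, and 0.0192 without CRS 1). Retnla, a resistin-like protein of alternatively activated macrophages and epithelium, had 0 counts in all 6 CON libraries and 0, 28, 1, 5, 16 and 5 in CRS 1 to 6, which is at least 19.6-fold higher over the group against a floor of 3 counts over the CON group. It was too low to be tested. Clca1 of goblet cells had 6 counts over CON and 52 over CRS, with 36 of these in CRS 2. Interleukin 13 (Il13) counts came to 1 over CON and 14 over CRS, 12 of them from CRS 2. Il5 had 3 and 13 counts, of which 8 were in CRS 6. Alox15, a lipoxygenase of epithelium and eosinophils, ranged from 48.5 to 96.6 CPM in CON and from 85.8 to 154 CPM in CRS (0.55 ± 0.20).

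Over the type 2 effectors as a list the direction was divided. The 17 tested had 8 above 0, 3 higher and 1 lower at an unadjusted p under 0.05, and a median of -0.12, which turned to 0.02 without CON 3 and to 0.04 without CRS 2 and CRS 5. Their mean level pointed the other way from the median: it was 0.15 to 0.48 above the CON mean in the 6 CRS libraries and above the CON range in 4. A mean over 17 genes can be carried by a single gene of large difference, here Chil4 (6.65). The level without Chil4 was not computed, so this mean does not show a rise across the list. Fcgbp, a mucus protein that binds the Fc part of IgG, ranged from 50.6 to 141 CPM in CON and from 65.1 to 405 CPM in CRS (0.91 ± 0.39), with 5 of 6 CRS libraries above the CON median. Muc5ac, a gel-forming mucin, ranged from 361 to 899 CPM in CON and from 82.5 to 465 CPM in CRS (-0.83 ± 0.43), and Muc5b from 1610 to 3040 CPM in CON and from 898 to 2020 CPM in CRS (-0.42 ± 0.24). Chil3 (5.58 to 27.0 CPM in CON, 6.59 to 15.4 CPM in CRS), Arg1 (1.48 to 4.07 and 1.42 to 3.26 CPM) and Il4 (3.75 to 7.48 and 2.67 to 8.34 CPM) overlapped widely. The alarmin Il33 ranged from 75.7 to 110 CPM in CON and from 70.5 to 85.9 CPM in CRS (-0.22 ± 0.09). Siglecf of eosinophils was lower in 5 of 6 CRS libraries than the CON median (-0.78 ± 0.35). The eosinophil peroxidase gene Epx had 59 counts over CON, all of them in CON 5, and 6 over CRS, and without CON 5 the median of the 5 eosinophil genes tested turned from -0.45 to 0.45.

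Immunoglobulin genes were the most divided. Ighg1, the constant region of IgG1, ranged from 1.14 to 27.5 CPM in CON and was at 0.742 CPM in CRS 2, 13.6 CPM in CRS 5 and 60.6 to 381 CPM in the other CRS libraries (3.65 ± 1.14, edgeR adjusted p = 0.227). B and plasma cell genes had 16 of 19 above 0 and a median of 0.40, which was 0.05 without CRS 1, 0.24 without CON 1, 0.68 without CON 5 and 0.94 without CRS 2 and CRS 5. Their level was 2.34 above the CON mean in CRS 1 and 3.44 below it in CRS 2, and CON ran from -1.85 to 1.05. The 99 variable segments tested, which share sequence so that reads may be split among them, had 65 above 0 and a median of 0.66 (0.18 without CRS 1, 1.09 without CON 6).

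In the epithelium, genes of motile cilia lay lower. Of 24 ciliated cell genes 20 lay below 0, 6 at an unadjusted p under 0.05, with a median of -0.24. Foxj1, the master factor of motile cilia, ranged from 153 to 244 CPM in CON and from 114 to 179 CPM in CRS (-0.43 ± 0.14). The axonemal dynein heavy chains, the motors of the cilium, had 14 of 15 below 0 and a median of -0.47. These are very long genes, and with the length trend removed the median was -0.37. Dnah6 ranged from 63.3 to 116 CPM in CON and from 26.6 to 71.2 CPM in CRS (-0.75 ± 0.32). Tuft cell and ionocyte genes were split, with 6 of 11 above 0 and 5 below. At an unadjusted p under 0.05, 5 lay higher (45.5%) and 1 lower, with a median of 0.19 (0.08 without CRS 5, 0.12 without CRS 2 and 0.29 without CON 6), and a level above the CON range in 5 CRS libraries. Foxi1, the factor that defines ionocytes, ranged from 29.2 to 42.1 CPM in CON and from 35.8 to 64.6 CPM in CRS (0.52 ± 0.15, edgeR adjusted p = 0.212, and 0.0399 without CRS 1). Avil of tuft cells ranged from 2.90 to 5.29 CPM in CON and from 5.16 to 7.43 CPM in CRS (0.65 ± 0.18), though Avil overlaps Tsfm.

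Gland and olfactory genes differed more between libraries than between groups. The 10 odorant-binding proteins and lipocalins tested had a median of 0.47, with the level 2.65 below the CON mean in CRS 1 and 1.45 above it in CRS 3, and the median was 0.14 without CRS 3 and 0.71 without CRS 1. Obp2a ranged from 5720 to 15500 CPM in CON and from 1880 to 30800 CPM in CRS (0.55 ± 0.50). All 16 genes of mature olfactory neurons lay above 0 with a median of 0.22, which was 0.07 without CRS 2, 0.09 without CON 5 and 0.12 without CRS 5, and turned to -0.08 without CRS 2 and CRS 5. Odorant receptors had 465 of 632 above 0 and a median of 0.20, which ran from 0.07 without CON 5 or CRS 2 to 0.34 without CON 6 and turned to -0.07 without CRS 2 and CRS 5. The olfactory level was highest in CRS 2 and CRS 5 (0.85 and 0.70) and low in CRS 1 (-0.51), the reverse of the stromal levels given above, and its part in those was not tested. Apex1, which encodes the enzyme named in the series title as the target of the compound, ranged from 4.94 to 7.74 CPM in CON and from 5.16 to 6.80 CPM in CRS (-0.06 ± 0.15), and it overlaps Pip4p1.

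**Figure D5:**
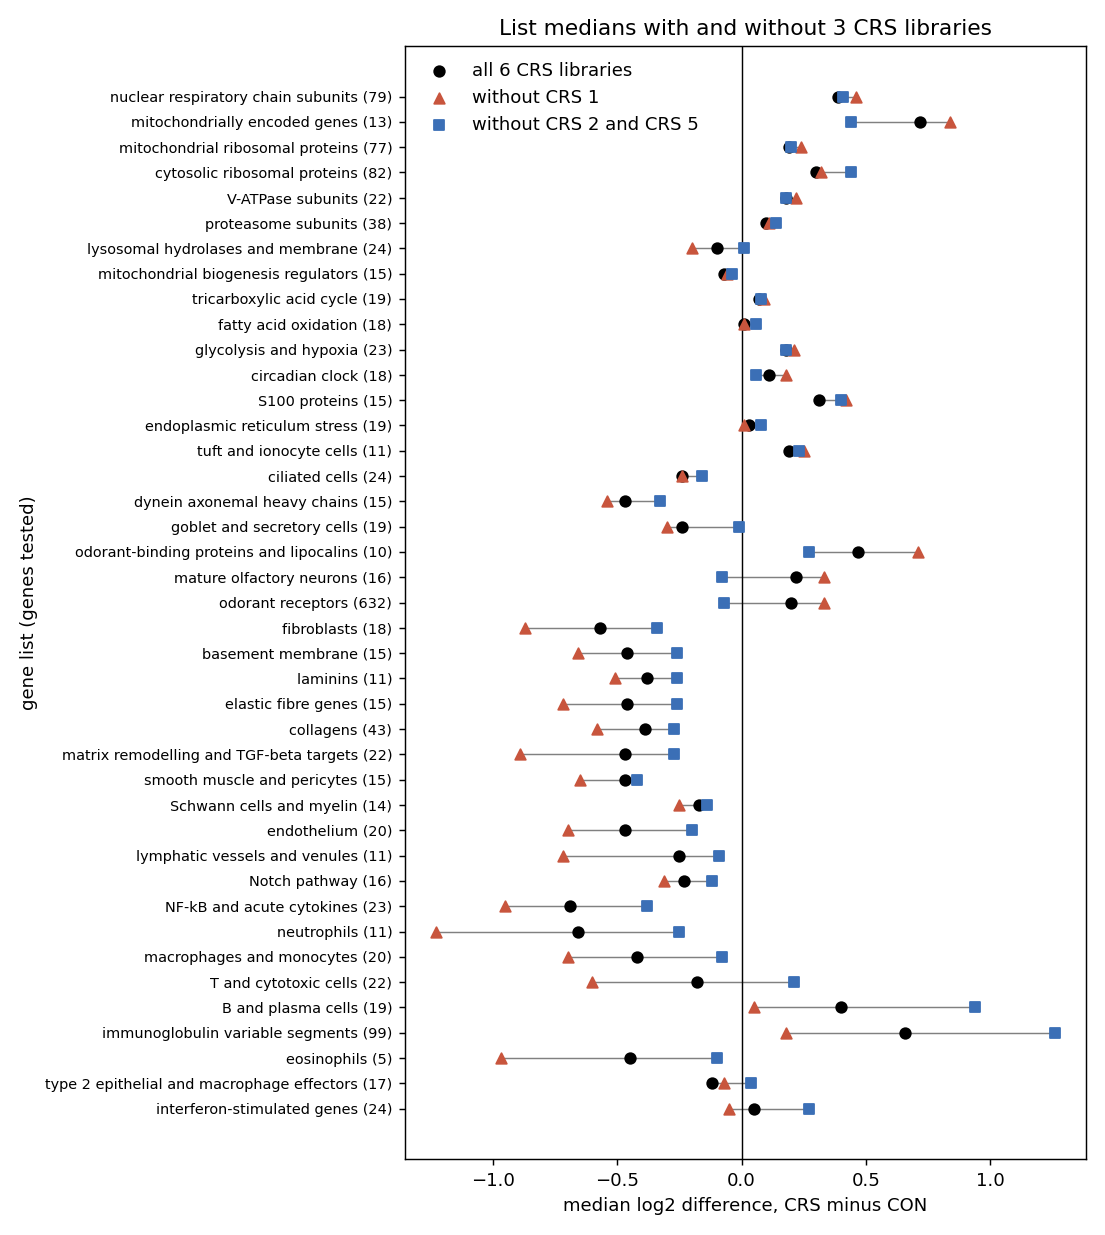
Median log2 difference, CRS minus CON, of 41 gene lists with all 6 CRS libraries (black circles), without CRS 1 (red triangles) and without CRS 2 and CRS 5 (blue squares), with the number of genes tested in brackets. The nuclear respiratory chain, V-ATPase and smooth muscle lists keep their side of 0 in all 3 settings, and the olfactory, T cell, type 2, interferon and lysosomal lists change side.

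CRS 3, 4 and 6, the CRS libraries inside the CON range on the leading component, had nuclear respiratory chain levels of 0.28, 0.90 and 0.37, smooth muscle levels of -0.61, -0.68 and -0.65 and Schwann cell levels of -0.21, -0.36 and -0.31.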

How the data were processed

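RNA of nasal mucosa was measured in 18 libraries, of which the 12 labelled CRS and CON were compared. The authors deposited a table of read counts per gene, which was tested as it stands, and FPKM values, which served as an alternative. Their build was mm10, per the submitters' processing notes. For the aligner, counter and annotation, the step is not given in the sources used here. Genes with enough counts in a group (filterByExpr) were normalized by TMM and fitted with edgeR 4.0.16 in R 4.3.3. All 18 libraries shared the estimate of spread, so 18291 of 54532 genes entered, with an adjusted p threshold of 0.05. limma 3.58.1 and DESeq2 1.42.0 gave alternatives. The procedure was tested on simulated data. CPM are counts scaled to the total of a library adjusted by its TMM factor, and a list level is a mean of log2 CPM with a prior count of 2. Detection ends at 3 counts, a limit that covers counting error only. No 2 libraries agreed within sampling noise (chi-square over degrees of freedom at least 14.5 in 66 pairs).

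Members and lists were chosen with earlier results of these data known. Named genes were those called, the 10 of smallest p in each direction, the 8 largest differences without overlap in each direction (both from a mean of 1 CPM, without unnamed models, receptor segments, odorant or vomeronasal receptors and pseudogenes), the 3 of smallest p in each list, and a fixed panel of type 2 and marker genes. Ndufa11, Cox8b, Cox6b2, Ndufa4l2, Uqcrb and Atp5mpl were named after their values were seen. Overlapping genes cannot be told apart without strand.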

Additional observations from a re-analysis of the deposited data

Results flagged for a closer look

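A library lay far from the other 5 of its group in 15 of 314 groups of values examined (4.78%), and chance alone gives about 1 in 20. The measure is the gap to the nearest library over the range of the group, set against Dixon's critical value for 6. CRS 4 was highest for Polr2k, a subunit shared by the RNA polymerases (0.712), and for the respiratory chain genes Uqcrb (0.706), Sdhd (0.693), Ndufa3 (0.678), Uqcrh (0.661) and Atp5mpl (0.636). CRS 1 was highest for Pdgfrb (0.663), Lamb1 (0.633) and the collagen level (0.629), and lowest for Trib3 (0.701). CRS 2 was lowest for interferon-stimulated genes (0.814) and for Cxcl1, a chemokine that draws neutrophils (0.682). Among controls, CON 3 was highest for Drp2 (0.834), CON 5 lowest for Trib3 (0.692) and CON 6 lowest for the nuclear RNA Neat1 (0.789).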

How the results depend on the processing

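Counts of called genes moved most with the processing, and the cause was not tested. Against 1 gene higher and 0 lower, edgeR gave 3 higher with a stricter filter, 2 with the gene length trend removed, and 0 with the 12 libraries only. limma gave 2 higher on log2(FPKM + 1) and 2 on log2(FPKM + 0.1), limma-voom with quality weights 395 higher and 545 lower, and DESeq2 126 and 52. Leaving out each library in turn gave 0 to 398 higher and 0 to 596 lower, both highest without CRS 1. Genes without overlap numbered 80 to 391 higher and 55 to 620 lower in the same way, and 207 and 156 without CRS 2 and CRS 5, settings chosen after seeing the data.

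With the replicate number as a block, edgeR called 0 genes higher, and the medians of B and plasma cells (-0.13) and interferon-stimulated genes (-0.03) changed side. The labels do not say whether equal numbers pair libraries. Correlations of the deviations of same-numbered libraries ran from -0.57 to 0.23, and 1 of 6 correlated best with its own number. Whether equal numbers share a batch was not tested.

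Without CRS 2 and CRS 5 the medians of mature olfactory neurons (-0.08), odorant receptors (-0.07), T cells (0.21), type 2 effectors (0.04) and lysosomal genes (0.01) changed side, as did Omp (-0.11), and that of goblet cells was -0.01. With the length trend removed, the shortest minus the longest decile was -0.01 and biogenesis regulators were at 0.00. The tuft and ionocyte median was 0.30 without a filter and 0.05 with limma-voom, and that of type 2 effectors 0.03 and 0.04. The B and plasma cell median was -0.04 on log2(FPKM + 0.1). Leaving out each library gave medians on both sides of 0 for T cells (-0.60 to 0.06), eosinophils (-0.97 to 0.45), type 2 effectors (-0.14 to 0.02), interferon-stimulated genes (-0.05 to 0.22), endoplasmic reticulum stress (-0.01 to 0.07), lysosomal genes (-0.20 to 0.02) and fatty acid oxidation (-0.02 to 0.05). Among single genes, Apex1 reached 0.02 without CON 4 and 0.05 with limma-voom, Arg1 0.10 without CON 3 and 0.04 with limma-voom, Chil3 0.24 and Prg2 0.61 without CON 5, and Il4 0.04 without CON 6 and 0.03 without CRS 4. The lowest values with a library left out were -0.11 for Apex1, -0.33 for Arg1, -0.40 for Chil3, -1.38 for Prg2 and -0.31 for Il4. Of 2665 values over 116 genes, 2465 kept direction and side of the threshold, 184 passed it newly, 7 no longer passed and 9 changed sign. Genes under 3 counts lie below what this depth can show.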
